A study of Mus musculus with 10 samples.

Results

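Spinal cords of female C57BL/6 mice, a common inbred laboratory strain, were compared at 8 and 4 weeks of age, taking all genes. The comparison used the 5 female libraries of a series of 10, namely 3 at 8 weeks and 2 at 4 weeks, chosen by the age and sex in their labels. The other 5 are male libraries of the same strain and ages, 2 at 4 weeks and 3 at 8 weeks. The labels name no treatment, allele or transgene in any group, and the design text names only the 2 ages. Each value began as a read count per gene from RNA sequencing of total RNA of the cord. The labels number the replicates and do not say whether separate animals were used. A p-value therefore sets a difference against the spread between these libraries only, and that spread may be technical.

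In mice most myelin of the cord is laid down in the weeks after birth by oligodendrocytes, which wrap axons in a membrane rich in cholesterol, galactolipids and a few abundant proteins. Precursor cells divide, pass through a short newly forming stage and then switch on myelin genes. Brain and cord make nearly all of their own cholesterol, so the enzymes of sterol synthesis work hardest while myelin is being built, and myelin lipids and proteins then turn over slowly.

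The female libraries held between 8453559 and 10134260 counts and between 18407 and 18638 genes with at least 1 count. Xist, the RNA that coats the silent X chromosome of female cells, lay between 478 and 775 CPM (counts set relative to the depth of the library, here with TMM factors), and Ddx3y, a Y-linked helicase gene, at 0.105 CPM or less. Hox genes of the caudal body axis summed to between 421 and 470 CPM of total counts and genes of forebrain identity to between 4.12 and 7.33. The counts of replicates differed beyond sampling noise, so each library was taken as 1 sample, and the labels name no batch. Being bulk samples, they cannot tell fewer cells of a type from less RNA per cell.

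Transcripts of tissues next to the cord were also present, and those of muscle, bone, red cells and marrow were more abundant at 4 weeks. The 15 genes of skeletal muscle summed to 932 and 896 CPM at 4 weeks and to 266, 371 and 229 CPM at 8 weeks. The 16 genes of cartilage and bone summed to 87.4 and 92.9 CPM at 4 weeks and to 44.7, 42.0 and 51.7 CPM at 8 weeks. These groups did not overlap, and the same was true of the erythroid genes (470 and 526 CPM against 397, 413 and 359 CPM). Fat cell genes were high in female 4-week library 1 alone, at 276 CPM against 38.3 CPM in its replicate and 16.8 to 50.4 CPM at 8 weeks. Neutrophil and marrow genes ranged from 241 to 373 CPM at 4 weeks and from 183 to 236 CPM at 8 weeks, and narrowly did not overlap. Schwann cell genes, which mark myelinating cells of the nerve roots, ranged from 661 to 724 CPM at 4 weeks and from 479 to 823 CPM at 8 weeks, and overlapped. Adrenal genes (13.2 to 16.2 CPM), sensory ganglion genes (12.1 to 14.7 CPM) and lung genes (1.96 to 3.09 CPM) were low in all 5 female libraries. Muscle, cartilage and bone, erythroid, and neutrophil and marrow transcripts thus moved with age. Their part in the results that follow was not tested.

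**Figure D1:**
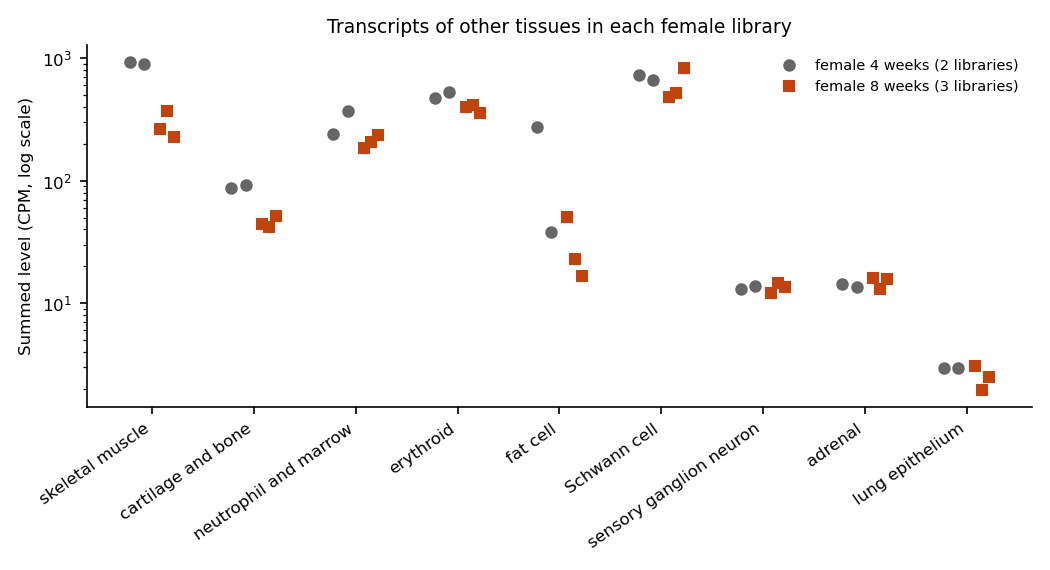
Summed level of the genes of 9 tissues other than the cord in each female library (vertical axis, CPM of total counts, log scale). Grey circles are the 2 libraries at 4 weeks and red squares the 3 at 8 weeks. Muscle genes sum to 896 CPM or more at 4 weeks and to 371 CPM or less at 8 weeks, while Schwann cell genes overlap.

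At 8 weeks female cords had lower levels of several genes for myelin proteins, for enzymes that make cholesterol and galactolipids, for newly forming oligodendrocytes and for collagens, while Il33 and a smaller number of genes were higher. Of 15540 genes tested, 226 had an adjusted p under 0.05 in the quasi-likelihood test of edgeR (Benjamini-Hochberg method), or 1.45%, and are termed called. Of these 189 were lower at 8 weeks (1.22% of genes tested) and 37 were higher (0.238%). In all 226 the libraries of the 2 ages did not overlap, against 31.3% of all genes tested. The calls were made on these same libraries, so this separation follows largely from the selection and adds no support. The lower genes had a median log2 fold change of −0.68, and 64 of them fell more than 2-fold. The higher genes had a median of 0.52, and 7 of them rose more than 2-fold. The median over all genes tested was 0.00, and 1879 genes had an unadjusted p under 0.05.

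The number of calls depended on which libraries entered. It was 94 and 68 without female 4-week library 1 or 2, and 62, 141 and 66 without female 8-week library 1, 2 or 3. It was 392 and 394 without male 4-week library 1 or 2, and 398 in the female libraries alone, of which 225 were among the 226. Leaving out male 8-week libraries 2 and 3 together gave 118. With the skeletal muscle score as a covariate 18 genes were called, 13 of them among the 226. That score, a mean over the muscle genes, had a Pearson correlation of −0.918 with age over the 10 libraries and raised the median standard error (SE) 1.70-fold, so that the score and age can hardly be told apart. The 13 genes were Mal, Gsn, Ugt8a, Il33, Mgll, Gpr17, 9630013A20Rik, Tspan2, Elovl6, Parvb, Plekha1, Car2 and Qdpr. Of 104 called genes followed one by one, limma-voom ended 27 calls, mostly of muscle and bone genes and, among those named below, of Aldh1l1, Car2, Cnksr3, Rras2, Npc2, Top2a, Epb42, Neat1, Gabra3, Plekhh2, Tmem144 and C030029H02Rik. Leaving out male 8-week libraries 2 and 3 ended 35, among them those of Mobp, Lss, Elovl7, Gltp, Sox10, Qdpr and Tmem163.

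**Figure D2:**
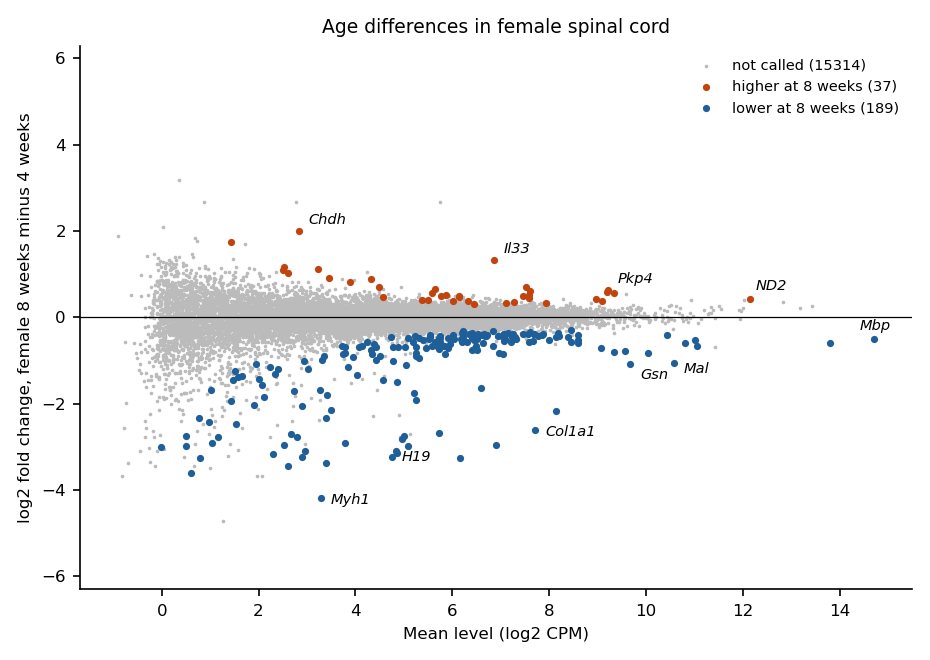
Log2 fold change between female cords at 8 and 4 weeks (vertical axis) against mean level over all 10 libraries (horizontal axis, log2 CPM), 1 point per gene tested. Red points are the 37 genes called higher and blue points the 189 called lower. The lowest blue points are genes of muscle, bone and collagen, and abundant myelin genes such as Mbp lie at the right with smaller changes.

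Several myelin protein genes fell. Mal (Entrez Gene 17153), which sorts lipids and proteins into the sheath, stood at 2215 and 2387 CPM in the 2 libraries at 4 weeks and at 1092, 1207 and 1032 CPM in the 3 at 8 weeks. All 3 older libraries lay far below both younger ones, a fall of 1.05 on the log2 scale (SE 0.08, adjusted p = 9.62e-05 by edgeR's quasi-likelihood test). Cldn11 (Entrez Gene 18417), the claudin that seals the layers of the sheath, stood at 1462 and 1395 CPM and then at 792, 879 and 736 CPM, a fall of 0.83 (SE 0.08, adjusted p = 0.000358, same test). The groups were again well apart.

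Mbp, a far more abundant gene, had a smaller fold change and a larger drop in CPM. Mbp (Entrez Gene 17196), the protein that holds the inner faces of the sheath together, fell by 0.50 on the log2 scale (SE 0.06, adjusted p = 0.00232, edgeR), from 34114 and 31123 CPM to 22787, 24849 and 21666 CPM. The 27 genes of the myelin and mature oligodendrocyte list together held 72362 and 68808 CPM at 4 weeks and 50295, 54314 and 48202 CPM at 8 weeks.

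Of those 27 genes, all tested, 10 fell and 1 rose, and the list's median was −0.14. Besides Mal, Cldn11 and Mbp, those that fell included Tspan2 (−0.81), a tetraspanin, Mog (−0.72) of the sheath's outer surface, Cnp (−0.66) of its cytoplasmic channels, Mobp (−0.60), and Mag (−0.42), which faces the axon. The 1 that rose was Car2 (0.42), a carbonic anhydrase of oligodendrocytes, at 420 and 385 CPM and then at 520, 580 and 512 CPM. Several other genes of the mature cell did not pass the test. Ermn (−0.04), Aspa (−0.07), Enpp2 (−0.01) and Trf (−0.13) had small differences, while Anln stood at 0.32 (adjusted p = 0.0894) and Klk6 at 0.32 (adjusted p = 0.317), both by edgeR.

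Mal, Cldn11, Tspan2, Mog, Mbp and Cnp kept their calls in all 10 fits that left out 1 library. Mag and Mobp lost theirs when 1 library of the female 4-week pair, or female 8-week library 1 or 3, was left out, at adjusted p values up to 0.0678 for Mag and 0.141 for Mobp. Car2 lost its call without 7 of the 10 libraries, all but the male 4-week libraries and male 8-week library 1, with values up to 0.241. With the muscle score as a covariate 2 members of the list were called lower and 1 higher. The muscle genes summed to 932 and 896 CPM at 4 weeks and to at most 371 CPM at 8 weeks in the same libraries. Of 10 tested Schwann cell genes none was called, at a median SE of 0.37 against 0.085 for the myelin list. The part of muscle and Schwann cell transcripts in these falls was not tested.

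**Figure D3:**
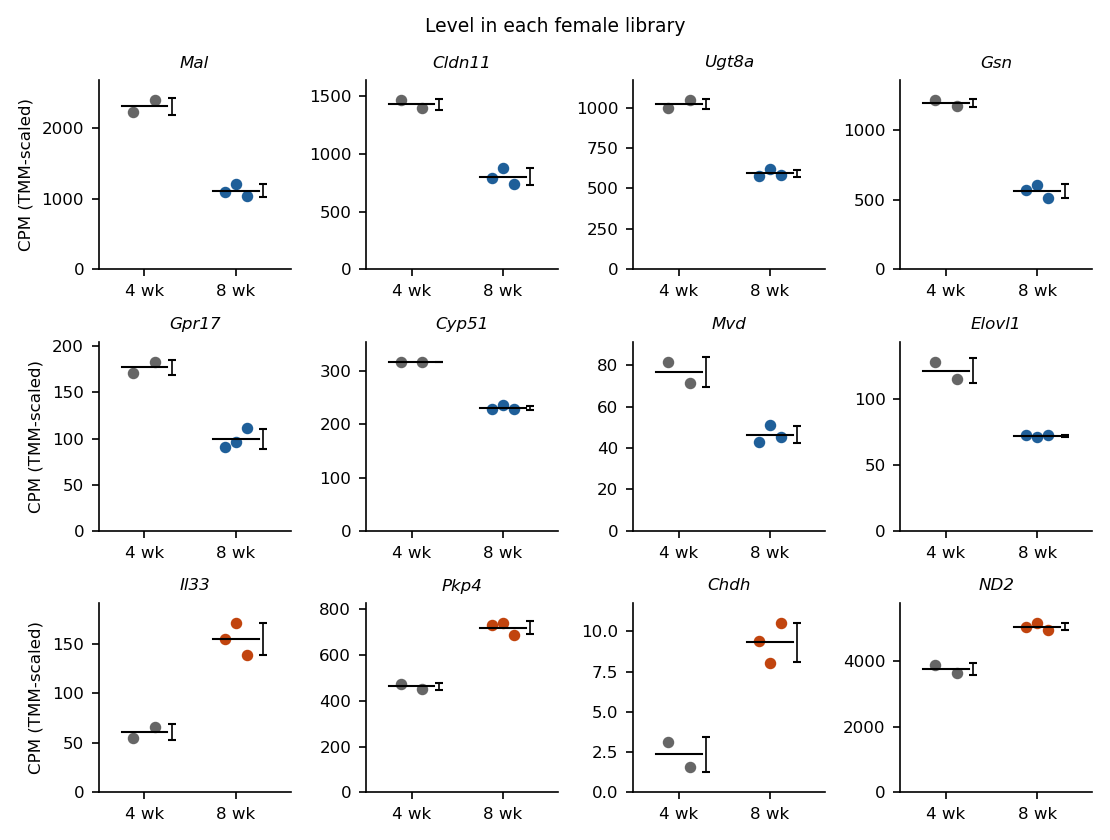
Level of 12 genes (vertical axes, TMM-scaled CPM from 0) in each female library at 4 weeks (grey points, 2 libraries) and 8 weeks (coloured points, 3 libraries). The horizontal lines are means and the bars SD. In every panel the points of the 2 ages are apart, lower at 8 weeks in blue and higher in red.

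Enzymes of myelin galactolipids were among the genes that fell. Ugt8a (Entrez Gene 22239), which adds galactose to ceramide to make the main glycolipid of myelin, stood at 999.8 and 1045 CPM at 4 weeks and at 575, 620 and 584 CPM at 8 weeks. It fell by 0.79 on the log2 scale (SE 0.06, adjusted p = 0.000139, edgeR), with a wide gap between the ages. Fa2h (Entrez Gene 338521), which hydroxylates the fatty acid of that lipid, fell by 0.58 (SE 0.07, adjusted p = 0.00154, edgeR), from 458 and 465 CPM to 295, 335 and 295 CPM.

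Of 14 tested genes of myelin sphingolipid synthesis 5 fell and none rose, with a median of −0.15. The other three were Gal3st1 (−0.66), which sulfates the galactolipid, Cers2 (−0.53), the ceramide synthase for very long chains, and Gltp (−0.40), which carries glycolipids. Ugt8a, Fa2h and Cers2 kept their calls in all 10 fits that left out 1 library. The count of 5 became 3 without female 4-week library 1, where Gal3st1 (adjusted p = 0.0711) was among those lost, and it became 1, Ugt8a, with the muscle score. Gltp also lost its call in the fits that left out female 4-week library 2, the second male library at 8 weeks, or female 8-week library 1 or 3, at adjusted p values up to 0.196.

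Of 19 tested enzymes of sterol synthesis 9 fell, among them early and late steps of the pathway. Cyp51 (Entrez Gene 13121), which removes a methyl group from lanosterol, stood at 317 and 317 CPM at 4 weeks and at 228, 236 and 228 CPM at 8 weeks. Its replicates lay close together and the ages far apart, a fall of 0.46 on the log2 scale (SE 0.06, adjusted p = 0.00322, edgeR). Mvd, which makes the isoprene unit from mevalonate, fell by 0.72 (SE 0.10, adjusted p = 0.00341, edgeR), from 81.6 and 71.5 CPM to 43.0, 51.1 and 45.3 CPM.

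The list held 20 enzymes, none of the 19 tested rose, and their median was −0.46. In all 19 the fold change was below 0, and in 18 both younger libraries lay above all 3 older ones, against 16.6% of all genes tested that lay apart in that direction. Early in the pathway Fdps (−0.68) joins the isoprene units that Mvd makes. Sqle (−0.55) and Lss (−0.63) oxidise squalene and close it into lanosterol. After Cyp51, Tm7sf2 (−0.69) and Dhcr7 (−0.40) reduce the sterol. The other 10 tested ranged from −0.55 for Idi1 (adjusted p = 0.25) to −0.17 for Nsdhl (adjusted p = 0.58), by edgeR, and Mvk (−0.46) just missed at an adjusted p of 0.0534. Hmgcs1, a synthase of the first steps, was listed at 0 in every female library and could not be tested.

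Promoters of 4 of these called enzymes are shown because such genes often share a CCAAT box, the site of the general factor NF-Y, close to their start. These 4 are the called enzymes with 1 promoter in the table, and they were picked after their motifs were seen, each holding at least 1. Dhcr7, with 3 promoters, is not printed, and 2 of its 3 have no CCAAT in the same 100 bases. They are the 100 bases before the start in RefSeq's annotation of GRCm38.p6, read along the gene's strand, with CCAAT or its reverse complement ATTGG in capitals. They lie at chr8:122443423-122443522 on the minus strand for Mvd, chr19:6067851-6067950 on the minus strand for Tm7sf2, chr10:76531505-76531604 on the plus strand for Lss and chr5:4104698-4104797 on the minus strand for Cyp51.
Mvd: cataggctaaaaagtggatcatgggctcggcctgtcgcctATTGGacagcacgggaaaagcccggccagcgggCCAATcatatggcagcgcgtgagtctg
Tm7sf2: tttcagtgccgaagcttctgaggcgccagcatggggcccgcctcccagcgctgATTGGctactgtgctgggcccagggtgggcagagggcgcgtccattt
Lss: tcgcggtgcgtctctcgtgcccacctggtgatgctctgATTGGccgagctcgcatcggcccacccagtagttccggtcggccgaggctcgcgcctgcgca
Cyp51: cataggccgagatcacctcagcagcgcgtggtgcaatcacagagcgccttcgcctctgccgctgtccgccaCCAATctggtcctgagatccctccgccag
Of the 20 listed enzymes 15 matched the promoter table, with 18 promoters. On either strand of the 250 bases before the start, CCAAT was found in 14 of these 18 promoters, and in 33.8% of all 32851 promoters in the table. The sterol element TCACNCCAC, searched in the same way with no overlap with CCAAT, was found in 1 of the 18 and in 1.05% of all. These matches describe the sequence and are not measured sites.

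Cyp51, Mvd and Sqle kept their calls in all 10 fits that left out 1 library. The count of 9 became 6 when female 4-week library 1 was left out, and 5 when either female 8-week library 1 or 3 was. Dhcr7, Fdps, Tm7sf2 and Lss lost their calls in 3 or 4 such fits each, at adjusted p values up to 0.0778, 0.124, 0.136 and 0.236, and Lss was the 1 lost without female 8-week library 2. Without female 4-week library 2 the count was 7, with Dhcr7 and Lss lost. With the muscle score as a covariate none of the 19 was called. Of 18 tested genes of sterol sensing and transport 1 fell, Npc2 (−0.42), which hands cholesterol out of lysosomes, and the list's median was 0.03. With 1.45% of all genes tested called, this 1 call says little about the list. Npc2 kept its call only without 1 of the male 4-week pair or male 8-week library 3, and otherwise reached an adjusted p of up to 0.34. The list's median lay between −0.015 and 0.051 when 1 library was left out, below 0 without female 4-week library 2 or female 8-week library 1.

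Of 13 genes of fatty acid synthesis, all tested, 4 fell and none rose, with a median of −0.16. Elovl1 (Entrez Gene 54325), which makes the very long chains of sphingolipids, stood at 128 and 115 CPM at 4 weeks and at 72.6, 71.4 and 72.9 CPM at 8 weeks. The older libraries were nearly equal, and the fall was 0.75 on the log2 scale (SE 0.08, adjusted p = 0.000962, edgeR). Elovl6 (−0.54) and Elovl7 (−0.43), elongases of shorter chains, and Acss2 (−0.45), which activates acetate, also fell. Elovl1 kept its call in all 10 fits that left out 1 library. The count of 4 became 1 when female 4-week library 2 was left out, and 2 when female 8-week library 1 or 2 was, where Elovl6 (adjusted p up to 0.143) and Elovl7 (up to 0.204) were lost. Acss2 lost its call without either 4-week female library (adjusted p up to 0.0575). With the muscle score 1 member, Elovl6, was called.

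Among stages of the oligodendrocyte lineage, several genes of the newly forming cell fell while none of the precursor cell was called. The stages were not compared by a test. Gpr17 (Entrez Gene 574402), a receptor carried by maturing precursors, stood at 171 and 183 CPM at 4 weeks and at 90.4, 96.1 and 112 CPM at 8 weeks. The highest older library lay well below the lowest younger one, a fall of 0.84 on the log2 scale (SE 0.10, adjusted p = 0.00188, edgeR). The transcript 9630013A20Rik (Entrez Gene 319903), a long non-coding RNA of the same stage, fell by 1.33 (SE 0.16, adjusted p = 0.00158, edgeR), from 25.1 and 23.2 CPM to 9.40, 10.4 and 8.94 CPM.

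Of 14 tested genes of the newly forming stage 6 fell and none rose, with a median of −0.40. The sum over the list changed little, from 1689 and 1678 CPM at 4 weeks to 1594, 1673 and 1567 CPM at 8 weeks. The other 4 of the 6 that fell are named next. They were Cnksr3 (−0.75), Rras2 (−0.68), a small GTPase, Tmem163 (−0.53), a zinc transporter, and Fyn (−0.39), a kinase of process outgrowth. Each of those lost its call without both female 4-week libraries in turn and without female 8-week libraries 1 and 3 in turn, when the count was 2 each time, at adjusted p values up to 0.285 for Cnksr3, 0.261 for Rras2, 0.213 for Tmem163 and 0.111 for Fyn. The count was 4 without any 1 male 8-week library, and also without the second of the female ones. Gpr17 and 9630013A20Rik were called in every such fit and were also the 2 members called with the muscle score.

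Of 16 tested genes of the precursor cell none was called, and their median was −0.12. Pdgfra, its growth factor receptor, stood at 61.2 and 66.6 CPM at 4 weeks and at 63.9, 67.0 and 62.2 CPM at 8 weeks, so that the ages overlapped. The lowest p of the list belonged to Neu4, at −0.32 (adjusted p = 0.285, edgeR), and Ptprz1 stood at 0.29 (adjusted p = 0.316, edgeR). Of 12 transcription factors and other regulators of the lineage, all tested, 2 fell (against 1.22% of all genes tested), with a median of −0.10. These were Olig1 (Entrez Gene 50914), from 456 and 466 CPM to 332, 369 and 340 CPM (−0.41, SE 0.07, adjusted p = 0.0134, edgeR), and Sox10 (−0.34, adjusted p = 0.0341, edgeR). Olig1 lost its call without female 4-week library 1 or 2 or female 8-week library 1 or 3 (adjusted p up to 0.0958), and Sox10 without those 4, or without female 8-week library 2 or either of the male 8-week libraries 1 and 2 (up to 0.231).

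**Figure D4:**
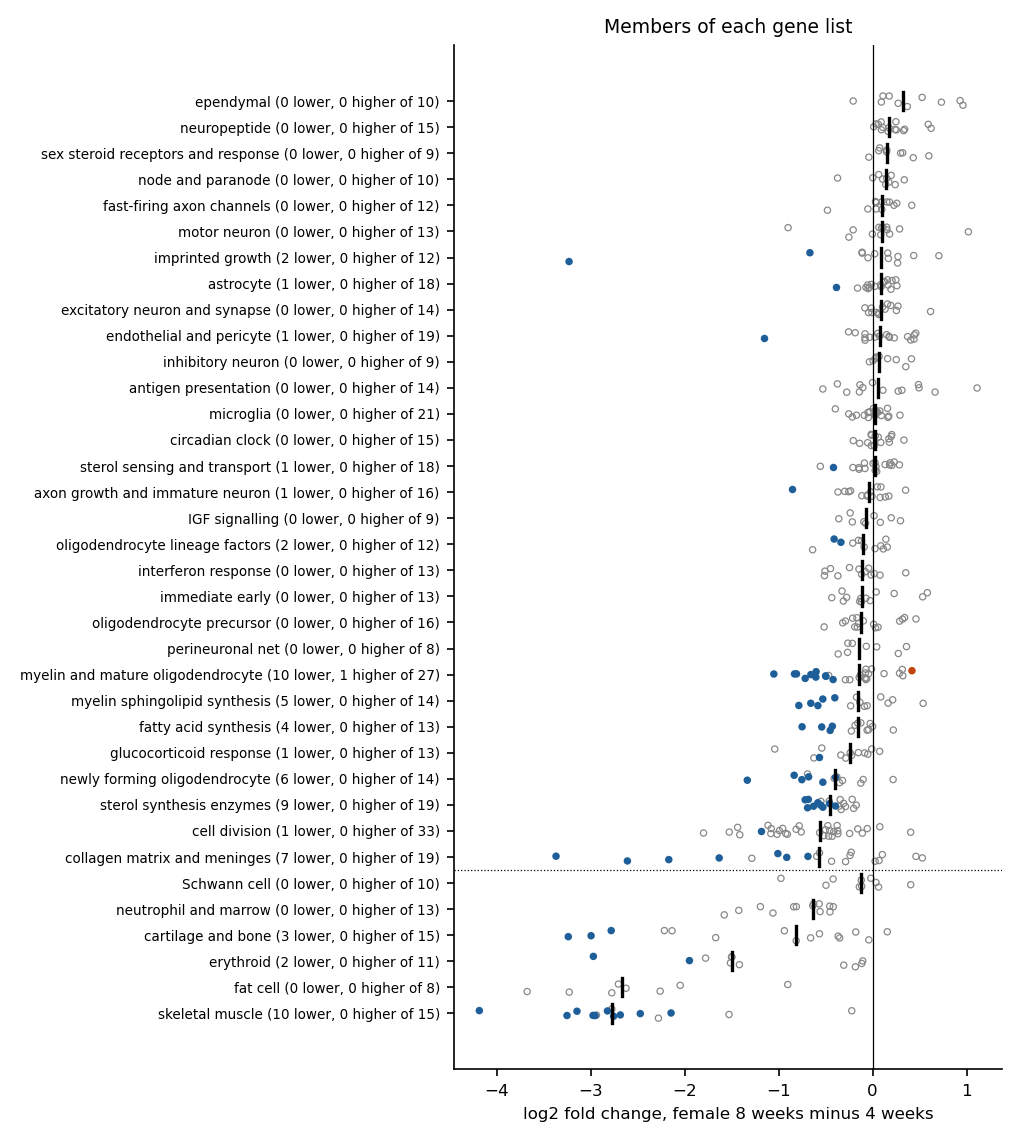
Log2 fold change between female cords at 8 and 4 weeks (horizontal axis) for the tested members of 36 gene lists, 1 row per list with its counts of called members. Filled points are called genes (blue lower, red higher), open points are not called, black bars are medians, and lists below the dotted line are of tissues outside the cord. Sterol synthesis enzymes all lie left of 0, while lists of neurons lie close to 0.

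Genes of cell division were scarce, and 1 of them fell. Of 34 listed 33 were tested, 31 had a fold change below 0 and 1 was called, with a median of −0.56. Since 1.45% of all genes tested were called, 1 such call says little about the list. The called gene was Top2a (Entrez Gene 21973), the topoisomerase of dividing cells, at 7.81 and 16.0 CPM and then at 5.06, 5.86 and 4.89 CPM, a fall of 1.19 on the log2 scale (SE 0.26, adjusted p = 0.0464, edgeR). Female 4-week library 2 was the highest of the 5 for this list, with 268 CPM over its members against 178 CPM in its replicate and 149 to 157 CPM at 8 weeks. That library also had the most marrow transcripts, at 373 CPM, and their part in these levels was not tested. Top2a lost its call without that library and without each 8-week library of either sex in turn, at adjusted p values up to 0.34, and 4 members were called in the female libraries alone. Mki67 stood at 17.9 and 45.5 CPM and then at 10.4, 11.2 and 13.8 CPM (adjusted p = 0.0672, edgeR), and Bub1 at −1.80 (adjusted p = 0.0647, edgeR).

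Collagens and other matrix genes had some of the larger falls. Col1a1 (Entrez Gene 12842), the main chain of type I collagen, stood at 418 and 565 CPM at 4 weeks and at 78.4, 78.4 and 84.7 CPM at 8 weeks. The younger libraries were high and uneven and the older ones low and alike, a fall of 2.61 on the log2 scale (SE 0.27, adjusted p = 0.000799, edgeR). Postn (Entrez Gene 50706), a matrix protein of bone lining and connective tissue, fell by 3.37 (SE 0.38, adjusted p = 0.00113, edgeR), from 31.1 and 15.3 CPM to 3.20, 1.99 and 1.46 CPM.

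Of 19 matrix and meningeal genes, all tested, 7 fell and none rose, with a median of −0.57. The others were Col1a2 (−2.17), Col3a1 (−1.63), Col5a2 (−1.01), Col5a1 (−0.91) and Fbn1 (−0.69), a fibrillin. The meningeal genes Ptgds (0.53, adjusted p = 0.34), Aldh1a2 (0.46, adjusted p = 0.64) and Slc6a13 (0.10, adjusted p = 0.94) were not called by edgeR. Col1a1, Col1a2 and Postn kept their calls in all 10 fits that left out 1 library. The count of 7 became 3 without female 4-week library 1, where Col3a1 (adjusted p = 0.0609) was among those lost, and 4 without any other single female library, where Col5a1, Col5a2 and Fbn1 lost theirs at adjusted p values up to 0.121, 0.159 and 0.207. The count was 10 in the female libraries alone, and none was called with the muscle score. The cartilage and bone genes summed to 87.4 and 92.9 CPM at 4 weeks and to at most 51.7 CPM at 8 weeks in the same libraries, and their part in the falls of the collagens was not tested.

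Muscle genes made up 7 of the 10 largest falls by the naming rule, the others being Postn, Mmp13 and H19. Myh1 (Entrez Gene 17879), a fast myosin of skeletal muscle, stood at 18.3 and 21.2 CPM at 4 weeks and at 1.45, 1.26 and 0.520 CPM at 8 weeks, a fall of 4.19 on the log2 scale (SE 0.61, adjusted p = 0.00573, edgeR). Of the 15 muscle genes tested 10 fell and none rose, with a median of −2.78. In all 15 the older libraries lay below the younger ones, against 16.6% of all genes tested. Acta1, actin of the sarcomere, stood at 197 and 210 CPM and then at 23.4, 42.8 and 12.6 CPM (−2.95). Mylpf (−3.25) and Atp2a1 (−3.15), the myosin light chain and calcium pump of fast fibres, were also among the 10 largest falls by the naming rule. So were Ckmt2 (−3.44), Myot (−3.17), Myl1 (−3.11) and Tcap (−3.10), muscle genes outside the list.

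Of 15 tested cartilage and bone genes 3 fell, with a median of −0.81. They were Mmp13 (−3.24), a collagenase of growth plates, Col10a1 (−3.00), the collagen of enlarged cartilage cells, and Bglap2 (−2.78), an osteocalcin. Of 11 tested erythroid genes 2 fell, Car1 (−2.97) and Epb42 (−1.95), with a median of −1.50. None of 13 neutrophil and marrow genes (median −0.64) and none of 8 fat cell genes (median −2.67) was called. The lowest p among them belonged to Mpo, at 6.01 and 16.5 CPM and then at 3.61, 2.51 and 5.30 CPM (adjusted p = 0.0971, edgeR), and to Fabp4 (adjusted p = 0.0641, edgeR), which stood at 123 CPM in female 4-week library 1 and at 16.2 CPM in its replicate.

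These calls rested on few libraries. The count of 10 muscle genes became 2 when female 4-week library 1 was left out, 1 when its replicate was, 1 without female 8-week library 1 or 3, and 2 with limma-voom. Myh1 kept its call throughout those fits, and lost it with limma-voom. Ckmt2 lost its call in 8 of the 10 fits, all but those without a male 4-week library (adjusted p up to 0.24), and Mylpf, Atp2a1, Tcap, Myl1 and Myot in the 4 without female 4-week library 1 or 2 or female 8-week library 1 or 3 (up to 0.121). The 3 bone genes became 0 when 1 of the female 4-week pair or of female 8-week libraries 1 and 3 was left out, and 1 when female 8-week library 2 was. The 2 erythroid genes became 0 without female 4-week library 2, 6 without female 4-week library 1, 4 without either male 4-week library, and 1 when male 8-week library 1 or any single female 8-week library was left out.

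H19 (Entrez Gene 14955), an imprinted RNA that falls in most organs as growth slows, stood at 44.2 and 61.8 CPM at 4 weeks and at 4.44, 7.43 and 5.10 CPM at 8 weeks. It fell by 3.23 on the log2 scale (SE 0.52, adjusted p = 0.0112, edgeR), and it is also an abundant transcript of muscle. Cdkn1c (−0.67), an imprinted brake on the cell cycle, also fell. The other 10 genes of the imprinted list were not called (list median 0.09), where 1.45% of all genes tested were called. Without female 8-week library 1 or 3 both calls were lost, as was that of H19 without female 4-week library 2 and that of Cdkn1c without its replicate. The adjusted p values then reached 0.089 for H19 and 0.254 for Cdkn1c. Growth factor signalling through IGF had no called member among 9 tested (median −0.07).

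Gsn and Mgll, which belong to none of the lists, had some of the lowest p values. Gsn (Entrez Gene 227753), gelsolin, which severs actin and is abundant in oligodendrocytes, stood at 1210 and 1172 CPM at 4 weeks and at 570.03, 605 and 511 CPM at 8 weeks, a fall of 1.08 on the log2 scale (SE 0.08, adjusted p = 9.62e-05, edgeR). Mgll (Entrez Gene 23945), the lipase that breaks down the endocannabinoid 2-AG, had almost equal replicates, at 149.7 and 146 CPM and then at 94.2, 93.8 and 92.6 CPM, a fall of 0.66 (SE 0.06, adjusted p = 0.000358, edgeR). Both kept their calls in every fit that left out 1 library and with the muscle score. Marcksl1 (Entrez Gene 17357), a membrane protein of growing neurites and immature glia, fell by 0.86 (SE 0.09, adjusted p = 0.000907, edgeR), from 195 and 164 CPM to 98.0, 107 and 91.1 CPM. It was the 1 called gene among 16 tested genes of axon growth and immature neurons, whose median was −0.04. Over all genes tested 1.45% were called.

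Other genes that fell outside the lists, chosen after their values were seen, included Sirt2 (−0.61), a deacetylase abundant in myelin, Gamt (−0.94), which completes creatine, Srd5a1 (−0.91), which reduces steroids such as progesterone, Aacs (−0.74), which feeds ketone bodies into lipid synthesis, and Arpc1b (−1.10), a subunit of the complex that branches actin. These 5 kept their calls in all 10 fits that left out 1 library. Acp5 (−2.92) and Ctsk (−1.44), enzymes of the bone-resorbing osteoclast, also fell, as did Eln (−1.49), elastin. Ctsk lost its call without female 4-week library 2 or female 8-week library 1 or 3 (adjusted p up to 0.0922).

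Il33 rose the most clearly of the genes that were higher at 8 weeks. Il33 (Entrez Gene 77125), a cytokine stored in the nuclei of oligodendrocytes and astrocytes, stood at 55.4 and 66.5 CPM at 4 weeks and at 154, 171 and 138 CPM at 8 weeks. The lowest older library lay above 2 times the highest younger one, a rise of 1.34 on the log2 scale (SE 0.12, adjusted p = 0.000311, edgeR). The call held in every fit that left out 1 library and with the muscle score, where the rise was 1.76. Its receptor Il1rl1 had 37 counts over the 5 libraries and was not tested, and none of the other 3 tested genes of that list was called, the nearest being Il17rb (1.36, adjusted p = 0.104, edgeR).

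Chdh (Entrez Gene 218865), the mitochondrial enzyme that oxidises choline to betaine, had the largest rise by the naming rule, from 3.12 and 1.6 CPM to 9.40, 8.05 and 10.5 CPM. That is 2.0 on the log2 scale (SE 0.30, adjusted p = 0.00715, edgeR), at low counts, and the call was lost without female 4-week library 2 (adjusted p = 0.0902). Pkp4 (Entrez Gene 227937), a plakophilin of cell contacts, stood at 473 and 451 CPM and then at 730.3, 737 and 688 CPM, a rise of 0.64 (SE 0.07, adjusted p = 0.00125, edgeR) that was called in every fit that left out 1 library. Plekhm2, an adaptor that moves lysosomes, rose by 0.49 (adjusted p = 0.00455, edgeR), from 153 and 139 CPM to 202, 206 and 205 CPM, and lost its call without female 4-week library 2 (adjusted p = 0.0604).

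The rest of the 10 largest rises came from genes of low level. They were Pkd2l1 (0.90), the channel of neurons that touch the central canal, Nxph2 (1.02), a neurexin ligand, Tmem144 (0.91), Plekhh2 (0.82), and the poorly known transcripts 1700063D05Rik (1.74), A930006I01Rik (1.16), A230001M10Rik (1.11) and C030029H02Rik (1.10). Pkd2l1 stood at 14.1 and 11.8 CPM and then at 21.3, 23.1 and 27.7 CPM. Each of these 8 lost its call without 2 to 7 single libraries, always including at least 2 female ones, at adjusted p values up to 0.284. Leaving out female 4-week library 1 ended all of these 8 calls but that of A930006I01Rik. Leaving out its replicate ended all but that of A230001M10Rik.

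Genes that rose outside the lists, chosen after their values were seen, included Unc13c (0.71), which primes synaptic vesicles, and Kif5b (0.56), a motor of intracellular transport. Gabra3 (0.33), a GABA receptor subunit, and Spock3 (0.44) were also among them. Etv1 (0.66), a transcription factor, Qdpr (0.60), which regenerates tetrahydrobiopterin, and the nuclear RNA Neat1 (0.62) rose too. Each lost its call without 2 or more single libraries, female ones among them. The adjusted p values after such a loss reached 0.139 for Unc13c, 0.124 for Kif5b, 0.261 for Gabra3, 0.0954 for Spock3, 0.109 for Etv1, 0.218 for Qdpr and 0.258 for Neat1.

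Of the messenger RNAs of the mitochondrial genome 1 rose. ND2 (Entrez Gene 17717), a subunit of respiratory complex I, stood at 3885 and 3632 CPM at 4 weeks and at 5049, 5160 and 4964 CPM at 8 weeks, a rise of 0.43 on the log2 scale (SE 0.06, adjusted p = 0.00703, edgeR). Its call was lost without female 4-week library 2 (adjusted p = 0.0677). After that value was seen the 13 messenger RNAs of the genome were listed. Of these 10 were tested and 1 was called, against 1.45% of all genes tested, and the median was 0.24. In 7 of the 10 all older libraries lay above both younger ones, against 14.7% of all genes tested, while COX3 (−0.12) and ATP6 (−0.10) lay below 0. ND1 (0.35, adjusted p = 0.0596) and ND5 (0.41, adjusted p = 0.0694) were nearest the threshold by edgeR. COX2, ATP8 and ND4L had at most 33 counts and were not tested, so the counting of these genes was uneven. In male libraries the list's median was 0.01, and the interaction of age with sex was not called for any member.

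The lists of neuron types, synapses, axon channels, neurofilaments and neuropeptides had no called member. The medians were 0.09 for 13 genes of motor neurons, 0.07 for 9 of inhibitory neurons, 0.09 for 14 of excitatory neurons and synapses, 0.10 for 12 channels of fast-firing axons, 0.01 for 4 neurofilament and related genes, and 0.17 for 15 neuropeptides. All 15 neuropeptide genes had a fold change above 0, the nearest to a call being Grp at 4.81 and 6.70 CPM and then at 10.5, 8.05 and 8.22 CPM (adjusted p = 0.252, edgeR). Among the others the lowest p values belonged to Mmp9 (−0.90, adjusted p = 0.147) for motor neurons, Kcnab1 (0.23, adjusted p = 0.169) for fast-firing axons and Snap25 (0.16, adjusted p = 0.248) for synapses, all by edgeR. Of 10 genes of the node and paranode, where glia meet the axon, none was called, and Nfasc stood at −0.37 (adjusted p = 0.296) while Cntn2 stood at 0.24 (adjusted p = 0.279), both by edgeR. None of 8 perineuronal net genes was called, with Hapln4 at 0.27 (adjusted p = 0.162) and Ncan at −0.27 (adjusted p = 0.169), both by edgeR.

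Lists of other glia and of vessels had 2 called members. As 1.45% of all genes tested were called, these calls say little about their lists. Of 18 astrocyte genes 1 fell, Aldh1l1 (−0.39, adjusted p = 0.0495, edgeR), an enzyme of folate metabolism, from 112 and 111 CPM to 82.1, 92.4 and 80.7 CPM, and the list's median was 0.09. Glul, glutamine synthetase, stood at 0.26 (adjusted p = 0.163, edgeR), in the other direction. Aldh1l1 lost its call in 6 of 10 fits, when 1 library of the female 4-week pair, of male 8-week libraries 2 and 3, or of female 8-week libraries 1 and 3 was left out (adjusted p up to 0.237). None of 21 microglia genes was called (median 0.03, nearest Fcrls at −0.40, adjusted p = 0.170, edgeR), and none of 10 ependymal genes (median 0.32, nearest Hydin at 0.73, adjusted p = 0.217, edgeR). Of 19 endothelial and pericyte genes 1 fell, Kcnj8 (−1.16, adjusted p = 0.0496, edgeR), a potassium channel of pericytes, from 6.37 and 6.2 CPM to 1.96, 2.41 and 4.06 CPM. Kcnj8 lost its call with RLE scaling, with TMM without genes of outside tissues, with the filter at 1 CPM, with the muscle score, without male 8-week libraries 2 and 3 together, and in 7 of 10 fits, all but those without a male 4-week library or female 8-week library 3 (adjusted p up to 0.228), and the list's median of 0.07 became −0.11 without female 8-week library 3.

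Immune, hormone and clock lists had 1 called member. Of all genes tested 1.45% were called, so such a call says little about its list. Of 13 genes of the glucocorticoid response 12 had a fold change below 0 and 1 fell, Ddit4 (−0.57, adjusted p = 0.0234, edgeR), an inhibitor of mTOR signalling, from 89.4 and 83.6 CPM to 64.1, 55.2 and 55.5 CPM, with a list median of −0.24. It lost its call without either female 4-week library or female 8-week library 2 or 3 (adjusted p up to 0.171), and 3 members were called in the female libraries alone. None of 14 antigen presentation genes (median 0.05), 13 interferon genes (median −0.12), 15 clock genes (median 0.03), 13 immediate early genes (median −0.12) or 9 genes of sex steroid receptors and response (median 0.15) was called. H2-Aa, a class II chain, stood at 4.81 and 3.8 CPM and then at 8.78, 11.1 and 7.90 CPM (1.11, adjusted p = 0.191), and Prlr, the prolactin receptor, at 0.43 (adjusted p = 0.202), both by edgeR.

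The male libraries share no sample with the female ones. Both sexes were fitted in the same model with a shared estimate of spread, so the calls in males are not independent of those in females. All 226 genes had the same direction there, against 64.7% of all genes tested, and 152 were also called in males, where 3.22% of genes were called. That held for 141 of the 189 lower genes and 11 of the 37 higher genes. Il33 rose by 1.66 in males, Mal fell by 1.05 and Gpr17 by 0.75, while Chdh (0.79, adjusted p = 0.142) and ND2 (0.15, adjusted p = 0.256) were not called there by edgeR. Muscle transcripts fell in males as well, with a list median of −3.23, and their part in the shared direction was not tested. The test of the difference between the sexes, the interaction, called 2 of 15540 genes (0.0129%), so for the 74 genes called in females alone no difference between the sexes was shown. The 2 were Star and Cyp11a1, which were not called by age in females (−0.03, adjusted p = 0.967, and 0.65, adjusted p = 0.601, edgeR).

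**Figure D5:**
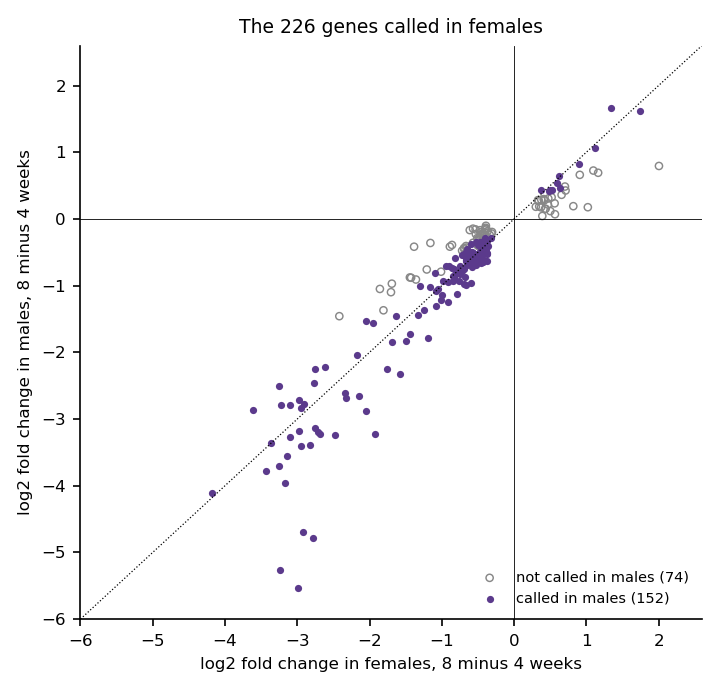
Log2 fold change between 8 and 4 weeks in male cords (vertical axis) against that in female cords (horizontal axis) for the 226 genes called in females. Filled points are the 152 also called in males, open points the other 74, and the dotted line marks equal change. All points lie at the lower left or the upper right, where both fold changes have the same sign.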

How the data were processed

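RNA of mouse spinal cord was sequenced in 10 libraries, of which the 5 female ones are compared. Each library has 1 file of whole-number read counts by Entrez Gene identifier, deposited without normalization. Alignment tools and build are known from the submitters' processing notes as TopHat2 2.1.0, featureCounts and mm9. For the counting options, strand and annotation version, nothing is given in the sources used here, so overlapping, antisense or near-identical genes are uncertain. Symbols came from RefSeq's table of GRCm38.p6, used for names and promoters only, and matched 24191 of 26301 identifiers. The others, with 0.956% of the counts or less in any library, were kept.

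The test on counts was that of edgeR 4.0.16 (R 4.3.3): TMM scaling, filterByExpr (minimum count 10, minimum total 15), 15540 genes, a model of the 4 groups of sex and age with 6 residual degrees of freedom, and the two-sided quasi-likelihood test with Benjamini-Hochberg adjustment at 0.05. SE is the absolute log2 fold change over the square root of F. Gene levels are TMM-scaled CPM, and sums over lists are CPM of total counts. Male libraries thus lend to the estimate of spread. Replicate numbers were not taken as pairing the samples. In simulated counts the fit gave the right direction for most known changes. Those counts held no transcripts of other tissues that moved with age, so they do not cover that feature of the data. Depth makes genes near 1 CPM imprecise.

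Named were the 10 largest and 10 smallest fold changes among called genes whose mean reached 1 log2 CPM and whose ages did not overlap, the 5 lowest p in each direction, the 2 lowest p of each of 44 lists, sex-linked genes and genes with a called interaction. Other called members, and genes stated as such, were added after their values were seen. Some genes that the rule names are counted in their lists but are not reported here by name. The comparison, its lists and the alternatives were chosen with earlier results of these data known. Alternatives were DESeq2 1.42.0, limma-voom (limma 3.58.1), other scalings and filters, a replicate block, the muscle score, and leaving out libraries.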

Additional observations from a re-analysis of the deposited data

Results flagged for a closer look

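Star (Entrez Gene 20845), the cholesterol carrier of steroid-making cells, had an age difference that was higher in females than in males by 2.01 on the log2 scale (SE 0.17, adjusted p = 0.000963, edgeR's quasi-likelihood test of the interaction of age and sex). In females it stood at 9.01 and 8.80 CPM at 4 weeks and at 8.98, 7.84 and 9.36 CPM at 8 weeks, while male libraries at 4 weeks stood at 40.6 and 36.2 CPM and those at 8 weeks at 9.26, 9.71 and 8.98 CPM.

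Cyp11a1 (Entrez Gene 13070), the first enzyme of steroid hormone synthesis, differed between the sexes by 4.49 (SE 0.53, adjusted p = 0.0144, same test). It stood at 0.721 and 0.600 CPM and then at 0.929, 1.15 and 1.04 CPM in females, and in males at 12.5 and 8.54 CPM at 4 weeks and 0.728, 0.993 and 0.468 CPM at 8 weeks. The call was lost in 6 of the 10 fits that left out 1 library, those without any 1 of the female libraries or male 8-week library 1, at adjusted p values from 0.0652 to 0.179. Both are genes of the adrenal gland, and the 11 genes of the adrenal list summed to between 13.2 and 16.2 CPM in the female libraries, to 146 and 105 CPM in the male 4-week libraries and to between 15.8 and 17.2 CPM in the male 8-week ones. Of 9 tested adrenal genes 8 were called lower at 8 weeks in males and none in females. The part of adrenal transcripts in both results was not tested.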

How the results depend on the processing

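The 226 calls, 37 higher and 189 lower, were within 1.5 times of their number with DESeq2 (291), limma-voom (169), RLE scaling (218), TMM without genes of outside tissues (220), a filter at 1 CPM in 2 or more libraries (220) and the replicate block (213). Libraries of the same replicate number had correlations of deviations of 0.0099 and −0.086. With 2 libraries at 4 weeks the deviations of the 2 mirror each other, so these values cannot decide whether the numbers pair the samples. The block called 38 higher and 175 lower, 182 of the calls being shared. With no filter 340 were called, 289 of them lower. The skeletal muscle score left 18, 4 higher and 14 lower. The female libraries alone gave 398 (65 higher, 333 lower), leaving out the male 4-week libraries 393 (71 higher, 322 lower), and leaving out male 8-week libraries 2 and 3 gave 118 (17 higher, 101 lower). Leaving out 1 library gave between 62 (without female 8-week library 1) and 394 (without male 4-week library 2) calls, between 7 and 74 higher and between 55 and 322 lower. The interaction had 1 call with limma-voom and between 1 and 2 when 1 library was left out. The direction reversed for some medians and for genes of which none but 3 muscle genes was called. With the muscle score the medians became −0.082 for sterol sensing and transport, 0.021 for myelin, −0.25 for endothelial and pericyte genes, −0.18 for imprinted genes and 0.015 for skeletal muscle. The same score gave Tnni2 0.015, Tnnc2 0.28, Tnnt3 0.36, Ucp1 0.29, Abcb1a −0.025, Prtn3 0.030, Gria1 −0.12, Ptprz1 −0.10, Scn1a −0.28, Clock −0.40, Nr4a1 0.11, Tap1 0.54, Igf1r −0.48, Gad2 −0.15, Slc6a5 −0.89, Bst2 0.16, Ina −0.35, Neurod6 0.049, Napsa 0.38 and Star 0.076. The score is a mean over the skeletal muscle genes, so the shift of that list and its members follows from how the score was built. The cause of the other reversals was not tested. The endothelial median was −0.026 with the replicate block. When 1 library was left out it lay between −0.11 and 0.25, the median of sterol sensing between −0.015 and 0.051, Bst2 between −0.71 and 0.049, Neurod6 between −0.47 and 0.13, Rsad2 between −0.94 and 0.18, and Star between −0.081 and 0.043. Of 104 called genes followed one by one, 34 were called in all 10 fits that left out 1 library. The block ended 8 calls (among them Aldh1l1, Cnksr3, Gabra3, Rras2, Sox10, Tmem144 and Top2a), DESeq2 ended 2 (Col10a1 and Rras2), and none ended with no filter, in the female libraries alone or without the male 4-week libraries. With 2 libraries at 4 weeks and about 10 counts per CPM, differences of small size or in scarce genes were measured with little precision.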
